A study of Mus musculus with 2 samples.

Results

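The cells described here were chosen from single cell libraries of mouse bone marrow by their own transcripts, as T cells that carry no CD8 message. A called cell, meaning a barcode with at least 1000 unique molecular identifiers (UMIs, each a counted RNA molecule), at least 500 genes and at most 10% of its UMIs from mitochondrially encoded genes, was kept when it had at least 1 UMI of the CD3 chains Cd3d, Cd3e or Cd3g, at least 1 UMI of the T cell receptor (TCR) constant genes Trac, Trbc1 or Trbc2, and 0 UMIs of both Cd8a and Cd8b1. The rule kept 1888 of 23283 called cells, of which 814 came from the FMT-young library and 1074 from the FMT-aged library. Their own values chose them, so the levels of these 8 genes are given as a description. Only part of them carried the transcripts of an alpha-beta T cell, and most carried those of natural killer (NK) cells, so they are called gated cells below.

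The FMT-young library came from aged C57BL/6J mice that had received the gut microbiota of young donors by faecal microbiota transplantation (FMT). The FMT-aged library came from aged C57BL/6J mice that had received the microbiota of aged donors. Both groups were thus aged recipients of a transplant, and no untransplanted animals were analysed here. Each library was a sorted mixture of whole marrow, lineage-negative cells and, in the largest part, lineage-negative cKit+ progenitors, so the share of any mature cell among the barcodes was set in part by that mixture. Each group was 1 library, and the number of animals, their ages and the conditions of the transplant are not given in the sources used here. No test between the groups was possible: every difference below compares 2 libraries, and every interval is an exact 95% interval that covers counting error only, not the spread between mice.

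Mature T cells bind antigen through a receptor of an alpha and a beta chain, or of a gamma and a delta chain. The CD3 chains carry that signal into the cell. Cells with CD4 in place of CD8 include helper cells, which support B cells and macrophages, and regulatory T cells, which carry the transcription factor Foxp3 and restrain other T cells. Bone marrow is a known reservoir of memory and regulatory T cells. NK cells kill without a rearranged antigen receptor, but transcripts from TCR constant genes that have not been rearranged, and transcripts of CD3 chains, are known from them.

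The label of T cells was checked against its 5 markers, Cd3e, Trac, Trbc2, Cd4 and Cd28. Cd3e lies at chr9:44998740-45009627 beside Cd3d and Cd3g, and Trac, the constant gene of the alpha chain, at chr14:54220521-54224206 downstream of Trdc, the constant gene of the delta chain (GRCm38). Among gated cells, a UMI of Cd3d was found in 78.7% of FMT-young and 83.4% of FMT-aged cells, of Cd3g in 77.6% and 76.8%, of Trbc1 in 75.9% and 76.2%, and of Trbc2 in 64.7% and 65.3%. Trbc1 and Trbc2 are near-identical copies, and reads may be split between them. Trac was found in 25.8% of FMT-young and 30.7% of FMT-aged gated cells, and Cd3e in 25.6% and 28.9%. The gate was therefore met mostly through Cd3d, Cd3g and the beta chain genes, and not through Trac or Cd3e. In CD8 gated cells, which passed the same gate but had a Cd8a or Cd8b1 UMI, Trac was found in 65.4% of FMT-young and 73.2% of FMT-aged cells, and Cd3e in 80.2% and 80.5%.

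Cd4, the co-receptor of helper T cells, had a UMI in 10.1% of FMT-young and 11.3% of FMT-aged gated cells. In B gated cells (Cd79a and Cd79b at least 1 UMI and no CD3 chain), which should lack Cd4 and so show what free RNA in the droplets gives, the share was 0.656% in FMT-young and 0.589% in FMT-aged cells. B gated cells were deeper: the median UMI count was 4202 in FMT-young and 3530.5 in FMT-aged gated cells, against 14813 and 13000 in B gated cells. Cd28, the costimulatory receptor, had a UMI in 52.8% of FMT-young and 38.4% of FMT-aged gated cells, and in 21.0% and 15.1% of B gated cells. With every cell thinned to 2000 UMIs, which left out 85 FMT-young and 137 FMT-aged gated cells, Cd28 was found in 32.2% and 23.7% of gated cells and in 3.13% and 3.02% of B gated cells. Thinned in the same way, Cd4 was found in 4.12% and 6.30% of gated cells, Trac in 12.9% and 17.9%, and Cd3e in 14.8% and 18.8%.

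Transcripts that define NK cells were far more frequent than Cd4. Ncr1, which encodes the activating receptor NKp46, had a UMI in 47.5% of FMT-young and 48.1% of FMT-aged gated cells, against 1.61% and 0.393% of B gated cells. Klrb1c, which encodes NK1.1, was found in 56.9% of FMT-young and 61.8% of FMT-aged gated cells, against 1.49% and 0.917% of B gated cells. Eomes, a transcription factor of NK and memory CD8 cells, was found in 50.2% and 44.3%. Summed over 10 NK markers, 3 or more UMIs were found in 77.1% of FMT-young and 74.2% of FMT-aged gated cells, with a median sum of 24 UMIs per cell in both libraries. In CD8 gated cells the shares were 57.1% and 41.6%.

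**Figure D1:**
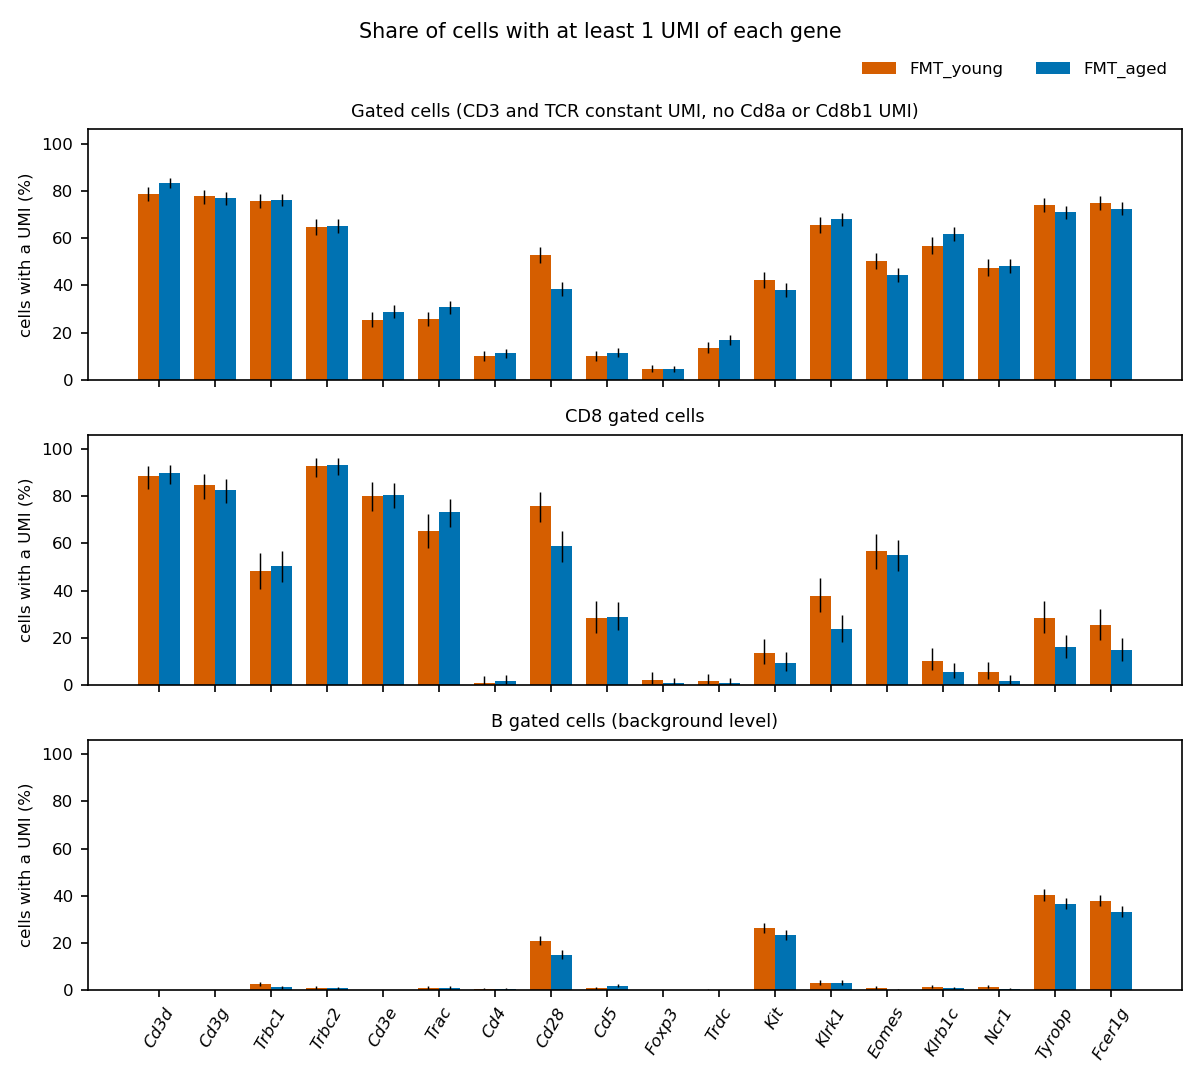
Share of cells with at least 1 UMI of each gene (percent, all UMIs of a cell) in gated, CD8 gated and B gated cells, with 1 bar per library and exact 95% binomial intervals. Cd3d and the Trbc genes mark most gated cells, while Trac and Cd3e mark 25.6% to 30.7% and Ncr1 and Klrb1c 47.5% to 61.8%.

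The gated cells fell into 3 sets by these transcripts and by depth. Cells with a UMI of Trac or Cd3e and at most 10000 UMIs numbered 233 in FMT-young and 359 in FMT-aged marrow. Cells with neither and at most 10000 UMIs numbered 416 and 583. Cells above 10000 UMIs numbered 165 and 132, or 20.3% and 12.3% of the gated cells, and held 65.5% and 50.8% of all gated UMIs. These cuts were made after the values were seen, from the gated cells themselves, so differences between the sets are descriptions.

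The deep cells carried other lineages. Their median was 25464 UMIs in FMT-young and 22060 in FMT-aged marrow, against 2514 and 2529 in the cells with Trac or Cd3e and 4055.5 and 3667 in the cells with neither. A doublet score built from simulated pairs of barcodes marked 77.6% of the deep FMT-young and 67.4% of the deep FMT-aged cells, but 5.08% and 2.44% of the gated cells at or below 10000 UMIs. At least 3 UMIs of 12 neutrophil and granule genes were found in 99.4% of the deep FMT-young and 96.2% of the deep FMT-aged cells, with median sums of 634 and 140.5 UMIs. At least 3 UMIs of 8 plasma cell genes were found in 86.7% and 66.7%. No barcode was shared by the gated cells of both libraries, and 34 were shared by the called cells.

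**Figure D2:**
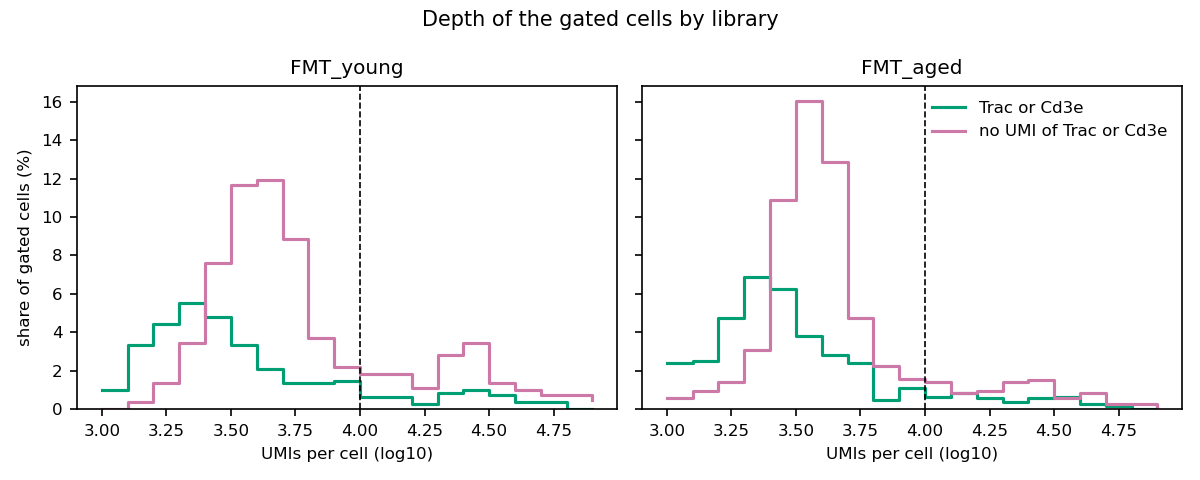
Share of the gated cells of each library (percent) by UMIs per cell (log10 scale on the horizontal axis). Cells carrying Trac or Cd3e and those without are drawn as step lines, with a dashed line at 10000 UMIs. The 165 FMT-young and 132 FMT-aged cells to the right of the line hold 65.5% and 50.8% of the gated UMIs.

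At least 2 CD3 UMIs and 2 TCR constant UMIs were found in 600 of 814 FMT-young and 838 of 1074 FMT-aged gated cells, and the others lay at the threshold. Exactly 1 CD3 UMI was found in 139 FMT-young and 133 FMT-aged gated cells, and exactly 1 TCR constant UMI in 123 and 137. In 48 and 34 cells there was exactly 1 UMI of each. Just outside the gate, 531 FMT-young and 332 FMT-aged cells had a CD3 UMI but no TCR constant UMI, and 433 and 519 had a TCR constant UMI but no CD3 UMI. On the CD8 side, 38 FMT-young and 53 FMT-aged cells entered the CD8 gated set with exactly 1 CD8 UMI. Trac or Cd3e was found in 78.9% and 92.5% of those, against 33.4% and 37.6% of the gated cells. Of all cells that passed the CD3 and TCR gate, 81.7% of 996 FMT-young and 82.3% of 1305 FMT-aged cells had no CD8 UMI.

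The cells with Trac or Cd3e had the profile of helper and regulatory T cells mixed with other T cells and with cells that carried NK markers. At least 3 UMIs of the 10 NK markers were found in 29.6% of FMT-young and 33.4% of FMT-aged cells of this set. Cd4 was found in 28.3% of FMT-young and 28.4% of FMT-aged cells, Cd5, a brake on TCR signals, in 28.3% and 25.4%, and Cd6 in 23.2% and 28.4%. Foxp3, which defines regulatory T cells, was found in 13.7% (95% interval 9.59 to 18.8) of FMT-young and 11.4% (8.32 to 15.2) of FMT-aged cells, and in 0 of 416 and 1 of 583 of the cells with neither Trac nor Cd3e, where 0 allows a share of up to 0.721%. The 2 intervals overlap. Foxp3 was found in 0 of 1677 FMT-young and 1 of 1527 FMT-aged B gated cells, at a far greater depth per cell, where 0 allows a share of up to 0.179%. Thinned to 2000 UMIs, which left out 71 FMT-young and 105 FMT-aged cells, Foxp3 was found in 6.79% and 5.12%, and Cd4 in 18.5% and 22.05%.

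Cells with Foxp3 carried the other genes of regulatory T cells. Ikzf2, which encodes the transcription factor Helios, was found in 96.9% of the 32 FMT-young and 92.7% of the 41 FMT-aged cells with Foxp3, against 47.3% and 50% of the remaining cells with Trac or Cd3e. Izumo1r, which encodes folate receptor 4, was found in 78.1% and 75.6% of them, against 29.9% and 33.0% of the rest, and Ctla4, an inhibitory receptor, in 56.2% and 51.2%, against 24.9% and 16.0%. Tnfrsf4, which encodes OX40, stood at 620 CPM (the gene's UMIs summed over the set and scaled to a fixed total for all genes) in the FMT-young and 728 in the FMT-aged cells with Foxp3, against 84.3 and 144 in those without. Gzmk was found in none of the Foxp3 cells, which allows a share of up to 9.38% in FMT-young and 7.32% in FMT-aged cells.

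Another group carried Gzmk, the granzyme of memory T cells that accumulate with age. Gzmk was found in 20.2% of FMT-young and 11.7% of FMT-aged cells with Trac or Cd3e, a log2 ratio of 0.79 with an interval of 0.15 to 1.42, and after thinning in 18.5% and 11.4%. It was found in 47.2% of FMT-young and 56.7% of FMT-aged CD8 gated cells and in no B gated cell of either library. Eomes was found in 53.2% of the 47 FMT-young and 54.8% of the 42 FMT-aged cells with Gzmk, against 10.8% and 13.6% of the rest. Ccl5, a chemokine of memory T and NK cells, reached 14119 CPM in the FMT-young and 12279 in the FMT-aged Gzmk cells, against 3117 and 3929 in those without. In Ccl5 and Eomes the Gzmk cells thus resembled CD8 gated cells, and how many of them were CD8 T cells whose CD8 message went uncounted was not tested.

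A further group carried Cxcr6, the chemokine receptor of tissue-resident and innate-like T cells. Cxcr6 was found in 19.3% of FMT-young and 24.8% of FMT-aged cells with Trac or Cd3e. Klrb1c was found in 28.9% of the 45 FMT-young and 46.1% of the 89 FMT-aged Cxcr6 cells, against 10.6% and 21.1% of the rest. Itga1, an integrin chain of resident lymphocytes, stood at 179 CPM in FMT-young and 248 in FMT-aged Cxcr6 cells, against 36.8 and 45.6 in cells without Cxcr6. Pdcd1, which encodes PD-1, ran the other way, in 4.44% of FMT-young and 3.37% of FMT-aged Cxcr6 cells. Zbtb16, the factor of invariant NKT cells, was found in 4.72% and 3.34% of all cells with Trac or Cd3e.

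Cells with Cd4 were higher in Maf and Pdcd1 and rarely carried Klrb1c. Maf, a transcription factor of interleukin 21 and interleukin 10 producing helper cells, stood at 1227 CPM in the 66 FMT-young and 1039 in the 102 FMT-aged cells with Cd4, against 365 and 280 in those without. Pdcd1 was found in 22.7% of FMT-young and 36.3% of FMT-aged Cd4 cells, against 10.8% and 9.34% of the rest. Klrb1c was found in 0 of 66 FMT-young Cd4 cells, which allows up to 4.55%, and in 3.92% of FMT-aged ones, against 19.8% and 36.6% of the rest. A small number of cells held nearly all Spp1, which encodes osteopontin. Spp1 was found in 13 FMT-young and 16 FMT-aged cells with Trac or Cd3e, and 5 cells held 80.0% and 79.7% of its 80 and 227 UMIs. Of these Spp1 cells, 61.5% in FMT-young and 81.2% in FMT-aged marrow had a Cd4 UMI, 92.3% and 81.2% had Tbc1d4, a regulator of glucose transport, and 53.8% and 43.8% had Sostdc1, a secreted antagonist of Wnt and BMP signals. Among cells with Trac or Cd3e but no Spp1, Cd4 was found in 26.4% and 25.9%, Tbc1d4 in 17.7% and 19.8%, and Sostdc1 in 3.64% and 4.08%.

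Set against CD8 gated cells of the same depth range, the leading genes that were higher in cells with Trac or Cd3e included Cd4, Tnfrsf4 and Izumo1r, and those that were lower included Gzmb, Ccl5 and Prf1. Of 3399 genes with at least 50 UMIs, 1.82% were 2-fold or more higher in both libraries and 0.5% were 2-fold or more lower. The CD8 message separates the sets by rule, and no test was made. Tnfrsf4 stood at 142 CPM in these cells and 17.8 in CD8 gated cells of FMT-young marrow, and at 199 and 19.8 in FMT-aged marrow. Izumo1r stood at 235 and 39.6 in FMT-young and at 280 and 16.7 in FMT-aged marrow. Spp1 and Sostdc1 were nearly absent from CD8 gated cells. No Spp1 UMI was counted in the 146 FMT-young and 206 FMT-aged CD8 gated cells at or below 10000 UMIs. Spp1 was found in 13 of 233 FMT-young and 16 of 359 FMT-aged cells with Trac or Cd3e. Few cells held most of its 80 and 227 UMIs there, so no fold difference is drawn from the UMI counts. Nrp1, a marker of thymus-derived regulatory T cells, had log2 ratios of 2.99 in FMT-young and 3.06 in FMT-aged marrow, and Igf1r, the receptor of insulin-like growth factor, of 2.64 and 2.72. Chil3, a chitinase-like gene of myeloid cells, was also among the 10 leading genes, at 166 CPM in these cells and 23.8 in CD8 gated cells of FMT-young marrow and at 71.3 and 9.12 in FMT-aged marrow, as was Gpm6b, a membrane glycoprotein, with log2 ratios of 5.26 and 4.62.

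Among genes lower in the cells with Trac or Cd3e, granzyme B led. Gzmb stood at 8.16 CPM in these cells and 166 in CD8 gated cells of FMT-young marrow, and at 25.9 and 173 in FMT-aged marrow. Ccl5 stood at 5035 and 14424 in FMT-young and at 4929 and 18378 in FMT-aged marrow. Gzmk had log2 ratios of -1.12 in FMT-young and -1.83 in FMT-aged marrow, Prf1, which encodes the pore-forming perforin, of -1.42 and -1.67, and Eomes of -1.62 and -1.61. Nkg7, a protein of cytotoxic granules, had log2 ratios of -1.32 and -1.35. With all gated cells in place of these, the leading genes were those of NK cells: of 8939 genes, 1.5% were 2-fold or more higher and 0.425% lower in both libraries, with Klra8 at 216 CPM against 18.1 in FMT-young and 305 against 11.6 in FMT-aged CD8 gated cells. The Klra genes are a family of near-identical copies, and reads may be split between them.

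The split by Trac or Cd3e divided other genes as well, and since it was made within these cells the values are a description. Of 5485 genes with at least 50 UMIs, 2.48% were 2-fold or more higher and 2.17% lower in the cells with Trac or Cd3e in both libraries. Ikzf2 stood at 659 CPM in cells with Trac or Cd3e and 25.9 in cells with neither in FMT-young marrow, and at 723 and 30.7 in FMT-aged marrow. S100a4, a calcium-binding protein of memory T cells, stood at 374 and 6.62 in FMT-young and at 425 and 18.4 in FMT-aged marrow. Nt5e, the ectoenzyme CD73 that makes adenosine, had log2 ratios of 5.23 and 5.68. On the lower side, Tyrobp stood at 474 and 2091 CPM in FMT-young and at 497 and 2262 in FMT-aged marrow, and Cd7, a surface protein of NK and T cells, had log2 ratios of -2.13 and -2.08.

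The cells with neither Trac nor Cd3e had an NK transcript profile in both libraries. Tyrobp, the adaptor of activating NK receptors, was found in 95.2% of FMT-young and 95.03% of FMT-aged cells, Ccl5 in 97.4% and 98.3%, and Klrk1, which encodes NKG2D, in 87.3% and 88.7%. Klrb1c was found in 78.8% and 82.7% and Ncr1 in 65.1% and 68.8%. At least 3 UMIs of the 10 NK markers were found in 96.9% and 95.7% of these cells. Cd4 was found in 0.721% and 0.686% of them, about the share in B gated cells (0.656% and 0.589%). The B gated cells were deeper, with medians of 14813 and 13000 UMIs against 4055.5 and 3667, so similar shares do not mean similar levels.

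NK gated cells (a UMI of Ncr1 or Klrb1c but no CD3 or no TCR constant UMI) with at most 10000 UMIs were compared with them. Klrb1c was found in 78.8% of FMT-young and 85.0% of FMT-aged NK gated cells and Ncr1 in 67.1% and 68.2%, close to the shares above. Since Ncr1 and Klrb1c are part of that rule, genes outside it are the better guide. Of 6001 genes with at least 50 UMIs, 0.133% were 2-fold or more higher and 0.9% lower in the cells without Trac or Cd3e in both libraries. Among the named higher genes, Trdc stood at 57.3 CPM in these cells and 23.2 in NK gated cells of FMT-young marrow and at 76.4 and 36.4 in FMT-aged marrow. Tcrg-C4, a gamma chain constant gene with near-identical copies, stood at 111 and 48.9 in FMT-young and at 95.7 and 43.4 in FMT-aged marrow. Gpr55, a lipid receptor, had log2 ratios of 1.5 and 1.41. The lower genes were those of stem and progenitor cells in the NK gated set, such as Myl10, at 1.10 against 48.9 CPM in FMT-young and 2.20 against 101 in FMT-aged marrow, and Meis1, at 8.27 against 79.3 and 2.64 against 63.1.

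Transcripts of other receptor genes ran with this split. Trdc was found in 18.3% of FMT-young and 22.8% of FMT-aged cells with neither Trac nor Cd3e, in 4.29% and 6.41% of cells with either, and in 7.91% and 11.6% of NK gated cells. In B gated cells the share was 0.119% and 0.0655%. Kit, the stem cell factor receptor, which the sort enriched, was found in 49.5% and 46.8% of cells with neither gene, in 6.01% and 8.64% of cells with either, and in 44.0% and 47.8% of NK gated cells. Kit was found in 26.2% and 23.3% of the deeper B gated cells, whose precursor stages can express it, and after thinning to 2000 UMIs the shares were 29.4% and 26.3% in cells with neither gene, against 4.25% and 5.22% in B gated cells.

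**Figure D3:**
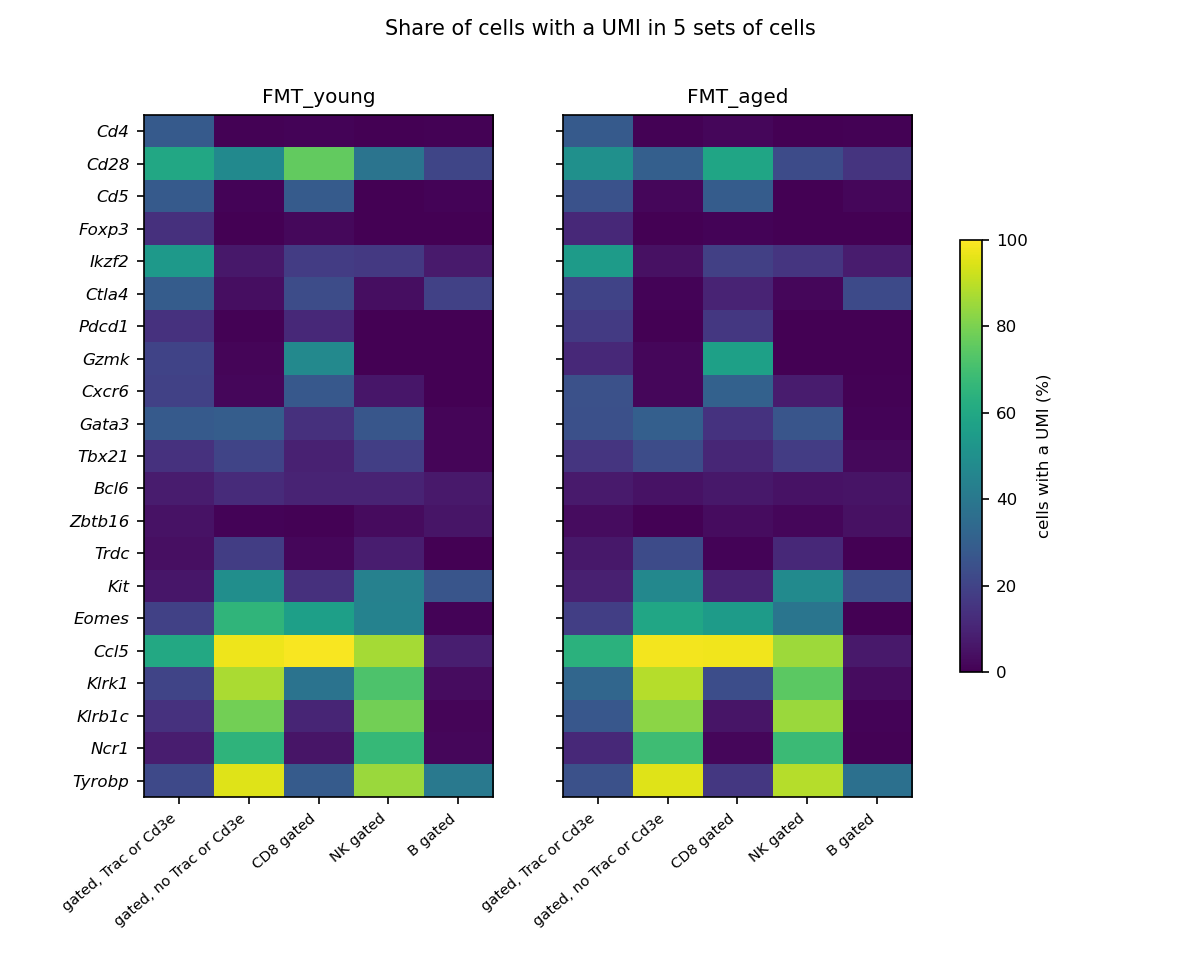
Share of cells with a UMI of 21 genes (colour, percent) in 5 sets of cells per library. Helper and regulatory genes such as Cd4, Foxp3 and Ikzf2 stand with the cells that carry Trac or Cd3e, and Ncr1, Klrb1c, Tyrobp and Kit with the cells that carry neither, which share that pattern with NK gated cells.

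Gated cells were a smaller share of the FMT-young library. They made up 6.82% (6.38 to 7.29) of 11932 FMT-young called cells and 9.46% (8.93 to 10.0) of 11351 FMT-aged called cells, a log2 ratio of -0.47 (-0.61 to -0.34). Cells with Trac or Cd3e and at most 10000 UMIs made up 1.95% of FMT-young and 3.16% of FMT-aged called cells (log2 ratio -0.70), and cells with neither 3.49% and 5.14% (log2 ratio -0.56). CD8 gated cells made up 1.53% and 2.04% (log2 ratio -0.42) and NK gated cells 3.58% and 4.80% (log2 ratio -0.42), whereas B gated cells made up 14.1% and 13.5% (log2 ratio 0.06). Gated cells above 10000 UMIs ran the other way, at 1.38% of FMT-young and 1.16% of FMT-aged called cells (log2 ratio 0.25, interval -0.09 to 0.59). The sort mixed 3 fractions before loading, and a difference in that mixture and a difference in the marrow cannot be told apart.

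Klf2 was higher in the FMT-young library in every set of cells examined. Klf2, at chr8:72319033-72321656, encodes a transcription factor of T cell quiescence and exit from tissue. It had 4790 UMIs in 638 FMT-young and 1250 UMIs in 463 FMT-aged gated cells, or 648 and 183 CPM, a log2 ratio of 1.82 (1.73 to 1.91). In cells with Trac or Cd3e it stood at 815 and 229 CPM (1.83), and in cells with neither at 776 and 180 (2.11). The 5 highest cells held 16.5% and 21.1% of the Klf2 UMIs in the cells with Trac or Cd3e and 6.75% and 6.34% in the cells with neither. Outside the gate the ratio was 1.79 in CD8 gated cells, 2.21 (2.04 to 2.38) in NK gated cells and 1.35 (1.31 to 1.39) in B gated cells, and these sizes were not tested against each other.

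Over all gated cells, 1.47% of 10144 genes were 2-fold or more higher and 1.12% 2-fold or more lower in the FMT-young library. The median log2 ratio of all genes was -0.20, and with a trimmed mean scaling factor, which takes a shift of -0.197 off every log2 ratio, the shares were 2.39% and 0.375%. Several of the leading genes are known from other cell types. Fcnb, a granule gene of neutrophil precursors, had 1603 UMIs in 95 FMT-young and 294 UMIs in 33 FMT-aged gated cells (log2 ratio 2.33), but 8 and 6 UMIs in the cells with Trac or Cd3e. Mzb1, a chaperone of plasma cells, had 3067 and 855 UMIs (1.73), of which 5 cells held 26.7% and 45.3%. Immunoglobulin genes took 8.95% of FMT-young and 3.90% of FMT-aged gated UMIs, and 1.40% and 0.714% at or below 10000 UMIs. In the cells with Trac or Cd3e they took 2.89% and 0.871%, a log2 ratio of 1.73 against 1.20 over all gated cells, and in the cells with neither 0.791% and 0.640%. At least 3 neutrophil and granule UMIs were found in 69.5% of FMT-young and 52.0% of FMT-aged gated cells, and in 61.9% and 45.9% at or below 10000 UMIs, and their part in the remaining ratios was not tested. Values for the sets at or below 10000 UMIs are therefore given beside those over all gated cells.

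In the cells with Trac or Cd3e, 1.28% of 4859 genes were 2-fold or more higher and 1.4% 2-fold or more lower in the FMT-young library, around a median log2 ratio of -0.09. After Klf2, the named higher genes held by many cells included Egr1, Rhob and Hsph1. Egr1, a transcription factor induced within minutes of receptor signals, stood at 546 CPM in FMT-young and 204 in FMT-aged cells (log2 ratio 1.42), and was found in 122 and 100 cells. Gadd45g, a stress-induced gene that promotes interferon gamma production in T cells, had 89 and 38 UMIs (1.78), and Phlda1, an inhibitor of growth signals, 99 and 42 (1.79). Hsph1, a heat shock chaperone, stood at 435 and 161 CPM (1.44), and Rhob, an immediate early small GTPase, at 283 and 104 (1.45). Mt1, a metallothionein, had 61 and 25 UMIs (1.84), and Polg2, a subunit of the mitochondrial DNA polymerase, 47 and 18 (1.94). Ccl3, a chemokine of activated lymphocytes, had 112 UMIs in 29 FMT-young and 53 UMIs in 22 FMT-aged cells (1.64). Mzb1 (2.93), Elane (1.67) and Ifitm6 (1.83) were also among the named higher genes. These 3 were held by few cells: 5 cells had 89.7% and 91.1% of the Mzb1 UMIs, 61.1% and 45.4% of the Elane UMIs, and 97.1% and 86.2% of the Ifitm6 UMIs.

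Genes of NK-type lectin receptors, and Clec2d, were lower in the FMT-young cells with Trac or Cd3e. Klrb1c had 80 UMIs in 33 FMT-young and 243 UMIs in 98 FMT-aged cells, or 109 and 225 CPM, a log2 ratio of -1.05 (-1.43 to -0.68). The share of cells with Klrb1c was 14.2% and 27.3%, and 14.2% and 26.8% after thinning. Klrc1, which encodes the inhibitory receptor NKG2A, had 41 and 136 UMIs (-1.17), and Klrd1, its partner CD94, 104 and 297 (-0.96). Clec2d, which encodes the ligand of the inhibitory receptor Klrb1b, stood at 121 and 255 CPM (-1.07). In cells with neither Trac nor Cd3e the log2 ratio was -0.33 for Klrb1c and -0.70 for Clec2d. In CD8 gated cells it was 0.60 for Klrb1c, with an interval of -0.37 to 1.60, and -0.88 for Clec2d. In NK gated cells, whose rule includes Klrb1c, the ratio was -0.31 (-0.46 to -0.16) for Klrb1c and -0.89 for Clec2d. In B gated cells it was 0.59 for Klrb1c, with an interval of -0.11 to 1.32, and -0.75 for Clec2d. Clec2d was thus lower in every set of cells examined. The lower Klrb1c level was seen in both sets of gated cells and in NK gated cells, but its size was not tested against that in other cells. The set with Trac or Cd3e held cells with several NK markers, and their part in its ratios was not tested.

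Lars2 was lower in every set of cells examined. Lars2, a mitochondrial leucyl tRNA synthetase, had 117 UMIs in 78 FMT-young and 471 UMIs in 223 FMT-aged cells with Trac or Cd3e (-1.45), and log2 ratios between -1.28 and -1.52 in the cells with neither gene (-1.52), CD8 gated (-1.28), NK gated (-1.47) and B gated cells (-1.29). H2-Aa, an MHC class II chain, had 67 and 300 UMIs (-1.61), of which 5 cells held 80.6% and 89.7%. Retnlg, a neutrophil gene, had 13 and 124 UMIs (-2.70), of which 5 cells held 38.5% and 95.2%. Spp1 had 80 and 227 UMIs (-0.95), in the 13 and 16 cells described above.

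Genes that define T cell subsets ran both ways between the libraries. Foxp3 had 48 UMIs in FMT-young and 66 in FMT-aged cells with Trac or Cd3e (log2 ratio 0.10), and the log2 ratios of Cd4 and Ikzf2 were both -0.13. Among 11 measured regulatory T cell genes, 6 were higher and 5 lower (median 0.07). Il2ra, which encodes the interleukin 2 receptor alpha chain, had 36 and 22 UMIs (1.27), and Ctla4 stood at 216 and 131 CPM (0.72), while Tnfrsf18, which encodes GITR, stood at 173 and 257 (-0.57). Cd28 had 324 and 306 UMIs (0.64), and Ifng, which encodes interferon gamma, 161 and 103 (1.20). Pdcd1 had 52 and 119 UMIs (-0.64). Of 18 genes of T helper identity 9 were higher and 9 lower, and of 26 TCR signalling genes 7 were higher and 19 lower, with a median of -0.13 near that of all genes (-0.09). The share of Foxp3 cells among cells with Trac or Cd3e had a log2 ratio of 0.27 with an interval of -0.45 to 0.97, so a difference in regulatory T cells was not detectable at this depth.

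**Figure D4:**
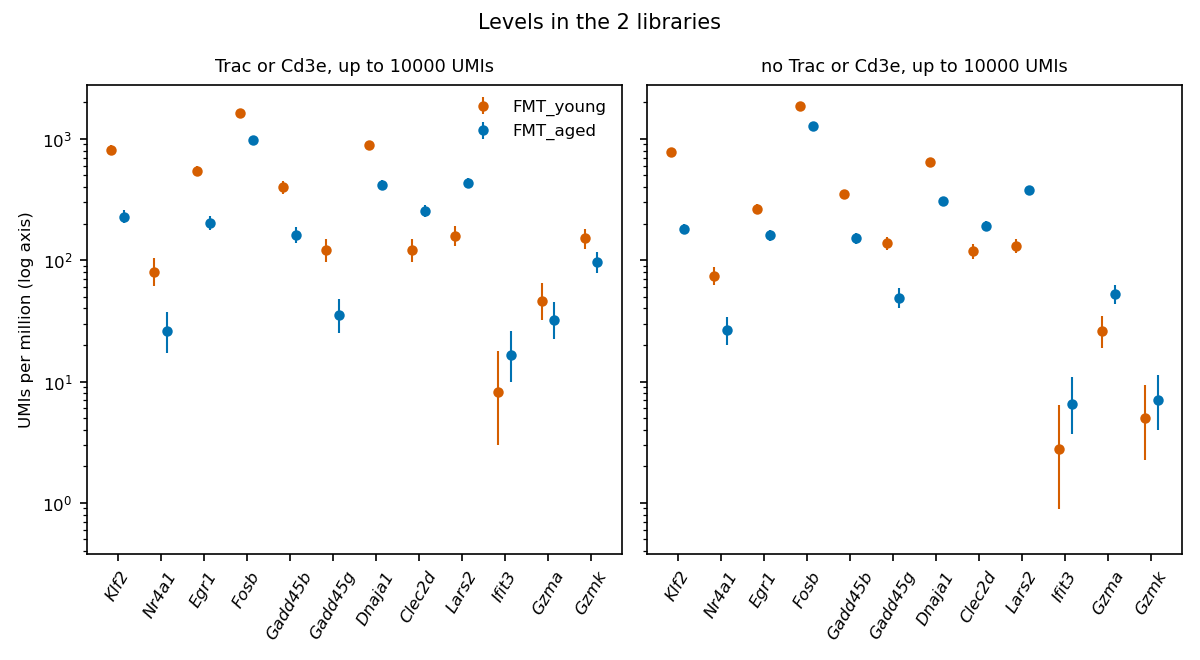
Level of 12 genes in CPM (log axis) in cells with Trac or Cd3e and in cells with neither, at most 10000 UMIs, by library, with exact 95% Poisson intervals. Klf2 stands at 815 and 229 CPM in FMT-young and FMT-aged cells with Trac or Cd3e and at 776 and 180 in cells with neither.

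In the cells with neither Trac nor Cd3e, 1.1% of 6894 genes were 2-fold or more higher and 0.885% 2-fold or more lower in the FMT-young library, again around a median of -0.09. Tfrc, the transferrin receptor of growing cells, had 130 UMIs in 90 FMT-young and 38 UMIs in 35 FMT-aged cells (log2 ratio 2.10). Id3, a transcriptional inhibitor, had 224 and 92 UMIs (1.61), and Gadd45g 249 and 112 (1.48). Cd28 had 497 and 290 UMIs (1.11), found in 47.6% of FMT-young and 30.4% of FMT-aged cells, and in 34.6% and 19.96% after thinning. The Cd28 ratio was 0.79 in CD8 gated, 1.23 in NK gated and 0.06 in B gated cells. Elane (1.85), Prtn3 (2.02) and Mpo (1.49), all granule genes of neutrophil precursors, were also higher. Ccr2, a receptor for monocyte chemoattractants, had 272 UMIs in 152 FMT-young and 565 UMIs in 265 FMT-aged cells (-0.73), with a ratio of -1.15 in CD8 gated and -0.73 in NK gated cells. Gzma, which encodes granzyme A, had 47 and 120 UMIs (-1.02). Of the 10 NK markers 9 were lower, 7 of them with an interval below 0, with a median of -0.15 against -0.09 for all genes. Klra4, a lectin receptor of the Klra family, stood at 426 and 589 CPM (-0.47), Klrb1c had a log2 ratio of -0.33 and Ncr1 of -0.23. The ratio was -0.41 for Trdc and -0.12 for Kit.

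Of 4756 genes measured in both sets, 58 were 2-fold or more higher in FMT-young cells with Trac or Cd3e and 47 in those with neither, and 21 genes were in both lists. These are 36.2% of the first list and 44.7% of the second. They included Klf2, Nr4a1, Gadd45b, Gadd45g, Rgs1, Dnaja1 and Ccl3, beside the granule genes Elane and Prtn3. Of 64 and 14 genes 2-fold or more lower, 3 were in both lists, Lars2, AY036118 and Gm42418. No cell is in both sets, but both were made from the same 2 libraries.

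Immediate early genes, which cells transcribe within minutes of a signal or of handling stress, were higher together in the FMT-young library. In cells with Trac or Cd3e, 29 of 29 measured genes were higher and 7 were 2-fold or more higher, with a median log2 ratio of 0.76 against -0.09 for all genes. In cells with neither, 27 of 30 were higher, with a median of 0.48, and 25 of 25 were higher in CD8 gated cells (median 0.96). Over all gated cells, 27 of 30 were higher, with a median of 0.53. Nr4a1, an orphan nuclear receptor induced by TCR signals among others, had 59 and 28 UMIs in cells with Trac or Cd3e (1.63) and 135 and 60 UMIs in cells with neither (1.5). Outside the gate, the Nr4a1 ratio was 1.76 in NK gated and 2.05 in B gated cells, and the Egr1 ratio 0.94 and 1.11. For these genes the higher level was thus not particular to T cells. Btg1, an antiproliferative gene, ran the other way over all gated cells, at 939 and 1053 CPM (-0.17), but had ratios of 0.18 and 0.04 in the sets with and without Trac or Cd3e. Heat shock genes, a list of cytosolic, mitochondrial and endoplasmic reticulum chaperones, were also higher, 12 of 12 in cells with Trac or Cd3e (median 0.54) and 11 of 13 in cells with neither (median 0.21), and 9 of 13 over all gated cells (median 0.05), where the mitochondrial chaperones Hspe1 (-0.21) and Hspd1 (-0.15) were among the lower ones. Dnaja1, an Hsp40 chaperone, stood at 893 and 419 CPM in cells with Trac or Cd3e (1.09).

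Interferon genes were lower together. In FMT-young gated cells 34 of the 36 genes on the type I list were lower, with a median log2 ratio of -0.50 against -0.20 for all genes. In cells with Trac or Cd3e, 20 of 25 measured were lower (median -0.35), and in cells with neither 24 of 28 (median -0.21). The median of all genes was -0.09 in both sets. With Trac or Cd3e, 8 of the 25 had an interval below 0, against 10.6% of all genes. Slfn5, a member of the Schlafen family, stood at 17.03 and 30.9 CPM in gated cells (-0.86), at 44.9 and 81.4 in cells with Trac or Cd3e (-0.86, interval -1.48 to -0.27) and at 31.4 and 36.5 in cells with neither (-0.21, interval -0.73 to 0.29). Ifit1, which binds foreign RNA caps, stood at 8.25 and 16.3 CPM in gated cells (-0.98), with log2 ratios of -0.54 (-1.34 to 0.22) in cells with Trac or Cd3e and -0.76 (-1.50 to -0.04) in cells with neither. Isg20, a nuclease, stood at 16.4 and 12.2 CPM in gated cells (0.43), but at 21.8 and 30.5 in cells with Trac or Cd3e (-0.49, interval -1.45 to 0.41). In CD8 gated cells the log2 ratios of Ifit1 and Slfn5 were 1.21 and 1.046, with intervals that span 0. Of the interferon gamma response genes, 27 of 29 were lower in gated cells (median -0.47), 17 of 24 in cells with Trac or Cd3e (median -0.23) and 18 of 24 in cells with neither (median -0.21). With Trac or Cd3e, 10 of the 24 had an interval below 0 and 1 had an interval above 0. List members with under 50 UMIs over both libraries in a set of cells were not measured.

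Promoters of these 2 lists are shown because most members of each lay on 1 side of the median of all genes. The palindrome TGACGTCA, the cAMP response element that CREB family factors bind, and the interferon-stimulated response element, searched as GAAA, any 2 bases and GAAA on both strands, were sought in the 250 bases upstream of each start in RefSeq (GRCm38.p6). The cAMP response element was in 2 of 25 immediate early genes with a promoter sequence (8%), against 1.77% of all 27025 genes. The interferon element was in 13 of 26 type I interferon genes with a promoter sequence (50%), against 3.46% of all genes. Of these 13, Ifit1, Ifit3 and Slfn5 are shown because they were picked for low log2 ratios over all gated cells. Their ratios were thus fixed by that choice and do not stand for the other genes with a match. In the 100 bases below, 5′ to 3′ on the gene's own strand, capitals mark each match, and an element on the opposite strand reads TTTC, 2 bases and TTTC.
Dusp1, chr17:26508562-26508661, minus strand: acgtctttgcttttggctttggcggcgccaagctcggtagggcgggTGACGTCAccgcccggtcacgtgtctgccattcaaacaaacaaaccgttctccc
Btg2, chr1:134079268-134079367, minus strand: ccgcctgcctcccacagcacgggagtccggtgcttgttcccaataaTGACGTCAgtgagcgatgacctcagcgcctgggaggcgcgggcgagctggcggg
Ifit1, chr19:34640758-34640857, plus strand: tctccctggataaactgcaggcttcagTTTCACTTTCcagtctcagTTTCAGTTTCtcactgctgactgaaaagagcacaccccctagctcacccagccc
Ifit3, chr19:34583361-34583460, plus strand: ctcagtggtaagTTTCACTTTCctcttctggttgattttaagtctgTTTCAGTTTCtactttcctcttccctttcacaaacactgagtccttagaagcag
Slfn5, chr11:82951901-82952000, plus strand: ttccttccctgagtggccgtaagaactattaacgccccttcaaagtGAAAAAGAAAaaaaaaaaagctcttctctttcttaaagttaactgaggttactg
Dusp1, a phosphatase that switches off MAP kinases, stood at 464 CPM in FMT-young and 316 in FMT-aged gated cells (0.56), with log2 ratios of 0.85 and 0.81 in cells with and without Trac or Cd3e. Btg2, an antiproliferative gene, stood at 559 and 386 CPM (0.53), with ratios of 0.76 and 0.50 in those sets. Ifit3, a partner of Ifit1, had 22 and 38 UMIs in gated cells and a log2 ratio of -0.90, and intervals that span 0 in cells with Trac or Cd3e (-2.65 to 0.37), in cells with neither (-3.07 to 0.28) and in CD8 gated cells (-0.29 to 2.41). Each match is a description of these letters and not a site shown to be bound.

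**Figure D5:**
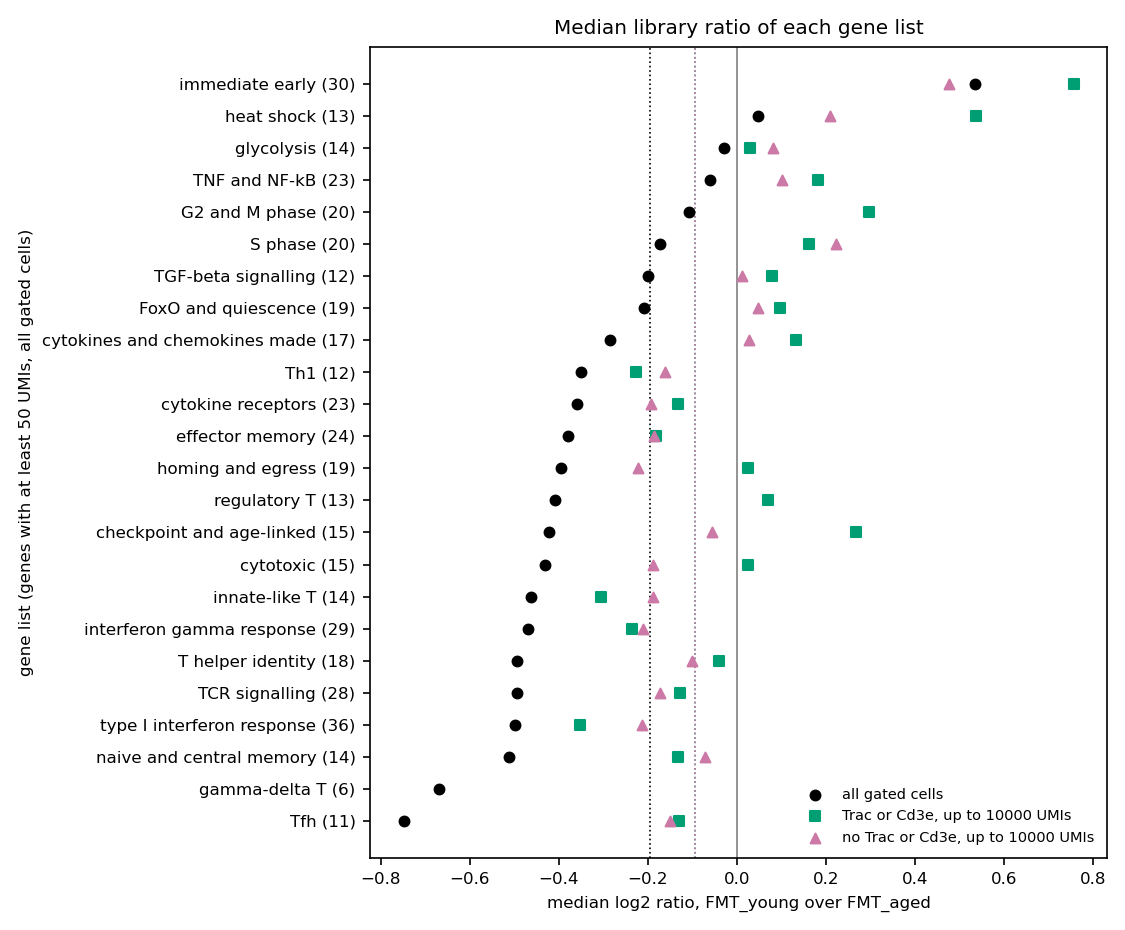
Median log2 ratio of FMT-young over FMT-aged CPM for each gene list, in all gated cells, in those with Trac or Cd3e and in those with neither (both at most 10000 UMIs), with dotted lines at the median of all genes. Immediate early genes lie above the lines at 0.53, 0.76 and 0.48, and type I interferon response genes below them at -0.50, -0.35 and -0.21.

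Several other lists had medians further below 0 over all gated cells than in the sets at or below 10000 UMIs. The median log2 ratio of all genes was itself -0.20 over all gated cells, and -0.09 both with Trac or Cd3e and with neither. Most genes were thus lower, and a list median near these values does not set a list apart. Follicular helper genes were lower in 10 of 11 over all gated cells (median -0.75), in 5 of 9 with Trac or Cd3e (median -0.13) and in 3 of 5 with neither (median -0.15). Gamma-delta T cell genes were lower in 6 of 6 (median -0.67), 3 of 3 (median -0.30) and 2 of 3 (median -0.17). Cytotoxic genes were lower in all gated cells (12 of 15, median -0.43) and in cells with neither Trac nor Cd3e (9 of 13, median -0.19), but 7 of 13 were higher in cells with either (median 0.03). Checkpoint and age-linked genes were lower in all gated cells (12 of 15, median -0.42), and 9 of 14 were higher in cells with Trac or Cd3e (median 0.27). Innate-like T cell genes were lower in all 3 (11 of 14, median -0.46, 9 of 12 with Trac or Cd3e, median -0.30, and 9 of 12 with neither, median -0.19). Effector memory genes were lower in 21 of 24, 17 of 24 and 17 of 22, with medians of -0.38, -0.18 and -0.19. TNF and NF-kB genes were higher in 16 of 22 in cells with Trac or Cd3e (median 0.18) and in 13 of 22 with neither (median 0.10). Over all gated cells 9 of 23 were higher, with a median of -0.06 against -0.20 for all genes. The 10 NK markers were lower in 10 of 10 over all gated cells (median -0.47) and in 8 of 10 and 9 of 10 in the sets with and without Trac or Cd3e (medians -0.30 and -0.15).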

How the data were processed

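The deposited files are 1 gene by barcode matrix per library, whose values are whole-number UMI counts made by the authors with Cell Ranger 3.1.0, per the file headers; the submitters' processing notes name Cell Ranger and the mm10 build. The deposited matrices list every barcode, so cells were called here with the limits given in the report, for 11932 FMT-young and 11351 FMT-aged cells out of 214982156 and 207642851 UMIs over 31053 genes. No column belonged to another series (0). Counts were read and summed with Python 3.11.15, numpy 2.4.6, scipy 1.17.1, pandas 2.3.3 and scikit-learn 1.9.0. Levels are CPM, the UMIs of the summed cells scaled to a fixed total. Ratios carry exact conditional binomial intervals, and a prior of 0.5 UMIs was added only where a count was 0. Gene counts, list counts and list medians used genes with at least 50 UMIs over both libraries, and 20 sufficed for a list member to be named. Shares carry exact Clopper-Pearson intervals. PCR copies are removed by the UMIs, and intervals cover counting error only. Doublets were scored by neighbours among simulated pairs, calling the top 0.8% per 1000 cells, and were kept except where stated.

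Between libraries, named genes were the 12 in each direction whose interval bound lay farthest from 0, among genes with at least 50 CPM in the higher library. Between sets of cells they were the 10 in each direction by that bound, with no CPM limit. Gene models, ribosomal, mitochondrial, immunoglobulin and receptor V genes were left out of both. In each list, 2 genes in each direction were named. The marker genes, the receptor genes, Spp1 partners, and Cd28, Nr4a1, Ifng, Pdcd1, Foxp3 and Gzma were also named, some after their values were seen. The members, the 27 lists and these rules were chosen with earlier results of these data known. The scripts were tested on simulated data. Alternatives tried are other limits on cells and genes, thinning, doublet and free RNA removal and other scalings.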

Additional observations from a re-analysis of the deposited data

Results flagged for a closer look

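In 2 genes the FMT-young over FMT-aged log2 ratio ran past 2-fold in opposite directions in the gated cells with Trac or Cd3e and in those with neither (both at most 10000 UMIs), and the difference between the sets was not tested. Igha, the constant gene of immunoglobulin A, had a log2 ratio of -4.93 in cells with Trac or Cd3e, with 29 FMT-young and 1297 FMT-aged UMIs, and of 3.31 in cells with neither, with 555 and 70 UMIs. A single FMT-aged cell held 1265 of the 1297 UMIs, and a single FMT-young cell 477 of the 555. The gene model Gm5483 had a log2 ratio of -2.79 in cells with Trac or Cd3e, with 6 and 61 UMIs, and of 4.27 in cells with neither, with 77 and 5 UMIs. A single FMT-aged cell held 60 of the 61, and a single FMT-young cell 51 of the 77.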

How the results depend on the processing

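No paired analysis was possible because each group is 1 library; for the same reason no replicate could be left out, and single libraries limit every statement here. Alternatives that use the 10000 UMI limit or the split by Trac or Cd3e were chosen after seeing the data. The log2 ratio of the share of gated cells (-0.47) was -0.62 without cells of high doublet score, -0.61 at or below 10000 UMIs and -1.06 without cells that held other lineage markers, which left 185 FMT-young and 367 FMT-aged cells. The log2 ratio of the share with Ncr1 or Klrb1c was -0.26 after thinning. Genes 2-fold or more higher (1.47%) made up 0.737% without other lineage markers, 2.71% as a mean over cells, 2.39% with the trimmed mean factor and 0.948% at 100 or more UMIs. Genes 2-fold or more lower (1.12%) made up 0.661% without high doublet scores, 3.25% in cells with a Cd4 UMI, 0.375% with the trimmed mean factor, 0.503% at 100 or more UMIs and 0.666% at or below 10000 UMIs. Against CD8 gated cells, 2.35% of genes were higher and 0.655% lower without high doublet scores, 3.61% and 0.875% without other lineage markers, and 3.06% and 0.859% at or below 10000 UMIs.

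Turned gene ratios were listed only for genes 2-fold or more apart over all gated cells. Among these, the log2 ratio turned in cells with a Cd4 UMI for Fcnb (-1.04), Vcam1 (-0.17), Wfdc21 (-0.71) and S100a8 (-0.17). It turned without high doublet scores for Derl3 (-0.056), without other lineage markers for Spp1 (1.31) and at or below 10000 UMIs for Cd34 (0.32). With neither Trac nor Cd3e it turned for Spp1 (0.23), Cd34 (0.55) and Adgrg1 (0.41), and with either for Gzma (0.51). The TCR signalling median (-0.49) was -0.21 without high doublet scores, -0.12 without other lineage markers, -0.22 as a mean over cells, -0.30 with the trimmed mean factor, -0.14 at or below 10000 UMIs, and -0.13 and -0.17 with and without Trac or Cd3e. The type I interferon median (-0.50) was -0.37 without high doublet scores, -0.20 without other lineage markers, -0.30 with the trimmed mean factor, -0.39 at or below 10000 UMIs, and -0.35 and -0.21 with and without Trac or Cd3e. The immediate early median (0.53) was 0.66 in cells with a Cd4 UMI, 0.73 with the trimmed mean factor and 0.76 with Trac or Cd3e. The S phase median (-0.17) turned to 0.31 without high doublet scores, 0.021 as a mean over cells, 0.025 with the trimmed mean factor, 0.11 at or below 10000 UMIs, and 0.16 and 0.22 with and without Trac or Cd3e. The checkpoint median turned to 0.047 at or below 10000 UMIs and 0.27 with Trac or Cd3e, where the cytotoxic median turned to 0.026 and the homing median to 0.025. For the named genes, the alternatives chosen at the start gave 572 ratios that moved by less than the counting interval, 249 that moved by more and 6 that turned. Those added later gave 57, 157 and 5. Only genes 2-fold or more apart over all gated cells could count as turned, and a change of sign in any other gene was counted by its size alone. Foxp3, for example, went from -0.67 over all gated cells to 0.10 with Trac or Cd3e. The causes were not tested.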

Other observations

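Variable gene transcripts of the 4 receptor chains were counted in the gated cells. A beta chain variable gene (Trbv) was found in 19 FMT-young and 15 FMT-aged cells with Trac or Cd3e (6.99% and 3.71%, cells of any depth), and in 1 and 0 of the cells with neither. A delta chain variable gene (Trdv) was found in 44 FMT-young and 50 FMT-aged cells with neither Trac nor Cd3e (8.12% and 7.46%), among them Trdv4 in 37 and 45 cells, and in 3 and 2 of the cells with either. An alpha chain variable gene (Trav) was found in 16 FMT-young and 25 FMT-aged cells with Trac or Cd3e (5.88% and 6.19%) and in 6 and 5 of the cells with neither (1.11% and 0.746%). A gamma chain variable gene (Trgv or Tcrg-V) was found in 7 and 23 cells with Trac or Cd3e (2.57% and 5.69%) and in 17 and 11 of the cells with neither (3.14% and 1.64%), an order that differs between the libraries. The library reads the 3′ ends of transcripts, so variable genes are rarely counted. These are values only.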
